A study of Mus musculus with 3 samples.

Results

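The miR-3473 family is a group of mouse microRNAs (miRNAs) that share a name and, in part, stretches of sequence. It is described here by its 5 listed members, mmu-miR-3473a, mmu-miR-3473b, mmu-miR-3473c, mmu-miR-3473d and mmu-miR-3473e, chosen by name out of 1881 mouse miRNAs on the array. The names were picked for a rise with the compound GW4869 in these same data, so the values of H+G-Exo against H-Exo are a description and support nothing. Only miR-3473a and miR-3473b reached a 2-fold rise with GW4869, in the same comparison that picked the names. miR-3473c and miR-3473e did not reach a 2-fold difference, and miR-3473d stayed at background on every array.

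The RNA came from exosomes, the small vesicles that bud inside cells and are shed to the outside, made by cultured mesenchymal stem cells (MSCs). These are adherent stromal cells that grow out of bone marrow. H+G-Exo came from MSCs kept in hypoxia with GW4869 for 24 h, H-Exo from MSCs kept in hypoxia for 24 h and N-Exo from MSCs kept in normoxia for 24 h. In all groups the MSCs were at passages 3 to 6 and had been grown from the marrow of male wild-type C57BL/6 mice aged 4 to 6 weeks. Low-speed spins took cells and debris out of the medium of 10 dishes, which was passed through a 0.2 µm filter. Exosomes were then pelleted at 100000 g for 70 min. The dose of GW4869, the oxygen level and the number of mice or cultures behind an array are not given in the sources used here. The culture medium held fetal bovine serum, and whether bovine vesicles had been removed from it is not given either. The design text speaks of 3 samples of each kind, while 1 array per group was analysed here, so no difference has a replicate check and no test could be made.

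A miRNA is cut from a hairpin RNA and guides a silencing complex to messenger RNAs, mainly through its seed, bases 2 to 8 from its 5′ end. GW4869 inhibits neutral sphingomyelinase, an enzyme that makes ceramide and takes part in the budding of exosomes, and exosomes carry miRNAs between cells. The letters that miR-3473a, miR-3473b and miR-3473e have in common also occur at the start of B2 elements, short repeats scattered through rodent genomes and transcribed by RNA polymerase III. Whether the hairpins lie in such elements was not determined here. A hybridization probe reads any RNA that holds its matching letters, so on these arrays a processed miR-3473 molecule and another RNA with those letters cannot be told apart.

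The mature sequences are printed because miR-3473e, which did not rise, differs from miR-3473b, which did, only at its 3′ end. They are those of RefSeq for build GRCm38.p6, all 5 were matched by name, and capitals mark the seed.
miR-3473a: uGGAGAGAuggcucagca
miR-3473b: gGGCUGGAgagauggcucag
miR-3473e: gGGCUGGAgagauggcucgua
miR-3473c: uCUCUCCAgcccccauaauaag
miR-3473d: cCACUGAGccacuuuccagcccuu
miR-3473b and miR-3473e share their seed, GGCUGGA, and their first 18 bases, and part only at the 3′ end. miR-3473a shares a run of 16 bases with miR-3473b and one of 14 bases with miR-3473e, but starts further along, so its seed differs. miR-3473c and miR-3473d share no run over 4 bases with any of these. miR-3473c instead holds 12 bases that are the reverse complement of letters of miR-3473b, and miR-3473d holds 8. The members are 18 to 24 bases long, and G and C make up 65.0% of miR-3473b, 61.9% of miR-3473e and 55.6% of miR-3473a.

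The hairpin of miR-3473b is printed with the mature sequence in capitals, because it holds both the letters of miR-3473b and their reverse complement, of which miR-3473c carries a part.
miR-3473b hairpin: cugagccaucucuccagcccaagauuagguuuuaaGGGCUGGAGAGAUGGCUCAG
Its first 20 and last 20 of 55 bases are perfect reverse complements. miR-3473b comes from bases 36 to 55, the last part of the hairpin. The whole 20-base reverse complement of miR-3473b also stands in the hairpin of miR-3473c, and there the mature miRNA is cut from the complementary side, bases 12 to 33 of 81. miR-3473d likewise comes from the first side of its hairpin, bases 10 to 33 of 81. miR-3473a comes from bases 59 to 76 of 78 and miR-3473e from bases 25 to 45 of 110.

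The mature sequences lie at 5 separate places in GRCm38.p6, each within the span of a protein-coding gene, and whether they fall in an exon or an intron was not determined here. miR-3473a lies at chrX:162874920-162874937 on the minus strand within the span of Syap1. miR-3473b lies at chr10:41670774-41670793 on the plus strand within Ccdc162. miR-3473c lies at chr1:191998602-191998623 on the minus strand within Traf5, the gene of an adaptor of tumour necrosis factor receptors. miR-3473d lies at chr8:111016498-111016521 on the minus strand within Ddx19b, the gene of a DEAD-box RNA helicase. miR-3473e lies at chr5:31667296-31667316 on the minus strand within Rbks, the gene of ribokinase.

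Each member had a pair of probes, 15 to 17 bases long, that pair with the 3′ part of the mature sequence, so none of them reads a whole seed. The brightest probes of miR-3473a, miR-3473b and miR-3473e are printed 5′ to 3′ with capitals on the 12 letters they have in common, since these probes differ only at their ends.
miR-3473a probe: tgctGAGCCATCTCTC
miR-3473b probe: ctGAGCCATCTCTCca
miR-3473e probe: tacGAGCCATCTCTCc
All 3 have 16 bases and 56.2% G and C. The probes of miR-3473a and miR-3473b share a run of 14 bases, those of miR-3473b and miR-3473e 13 bases and those of miR-3473a and miR-3473e 12 bases. Cross-hybridization among them was not tested. The array files give a genome position in build mm9 for miR-3473a only, chrX:159312911-159312925, which is 1 base shorter than the probe.

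In the values that follow, a scaled signal is the mean intensity over the replicate spots of a probe, after the scanner software's background subtraction, divided by the 75th percentile of its array. The figure after ± is the SD over the n spots of that probe, which measures technical error alone. The words rose and fell are used of a miRNA detected on the pair of arrays compared whose signals differed 2-fold or more and by over 2 standard errors over spots. A probe counted as detected where over 50% of its spots were well above background. Levels are compared between arrays for the same probe, never between probes.

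mmu-miR-3473b gave a scaled signal of 60.55 ± 1.02 in H+G-Exo (n = 15 spots), 8.71 ± 0.136 in H-Exo (n = 14) and 14.45 ± 0.445 in N-Exo (n = 15). The single spots ran from 58.7 to 62.4 in H+G-Exo, from 8.52 to 8.99 in H-Exo and from 13.6 to 15.1 in N-Exo. The spots of the 3 arrays did not overlap, with H+G-Exo highest and H-Exo lowest. Spots are replicates within 1 array, so their overlap, here and below, speaks of technical error alone. How often the spots of other miRNAs overlap was not counted. Its other probe, of 15 bases, kept this order, with 47.5 ± 0.889 in H+G-Exo, 6.59 ± 0.0993 in H-Exo and 11.4 ± 0.356 in N-Exo (n = 15 each). Before scaling the brightest probe read 28390 intensity units in H+G-Exo, 2047 in H-Exo and 6028 in N-Exo, and 0 spots of any member were saturated.

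mmu-miR-3473a showed the same order of arrays, with a scaled signal of 3.66 ± 0.150 in H+G-Exo (n = 14 spots), 0.541 ± 0.0427 in H-Exo (n = 15) and 1.05 ± 0.0325 in N-Exo (n = 13). Its spots did not overlap either, with 3.34 to 3.85 in H+G-Exo, 0.465 to 0.596 in H-Exo and 0.992 to 1.11 in N-Exo. The 15-base probe of miR-3473a, which lacks the last base of the 16-base one, gave 0.448 ± 0.0296 in H+G-Exo, 0.0580 ± 0.0196 in H-Exo and 0.118 ± 0.00930 in N-Exo (n = 15 each). In H-Exo only 20% of its spots were well above background, so that value is not read as a level. Before scaling the brightest probe read 1717 in H+G-Exo, 127.1 in H-Exo and 439.0 in N-Exo.

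mmu-miR-3473e, which has the seed of miR-3473b, did not follow it in H+G-Exo. Its scaled signal was 0.487 ± 0.0317 in H+G-Exo, 0.454 ± 0.0318 in H-Exo and 0.726 ± 0.0419 in N-Exo (n = 15 spots each). The spots of H+G-Exo, 0.420 to 0.529, overlapped those of H-Exo, 0.406 to 0.507. Those of N-Exo, 0.668 to 0.785, lay above both. The 15-base probe gave 0.140 ± 0.0282 in H+G-Exo, 0.0841 ± 0.0229 in H-Exo and 0.105 ± 0.0223 in N-Exo (n = 15 each). In H-Exo 53.3% of its spots were well above background, close to the detection limit. Its order of arrays differed from that of the 16-base probe, with H+G-Exo highest.

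mmu-miR-3473c, from the complementary side of its hairpin, gave 0.188 ± 0.0109 in H+G-Exo (n = 14 spots), 0.2325 ± 0.0178 in H-Exo (n = 14) and 0.188 ± 0.00830 in N-Exo (n = 11). H-Exo was highest, but its spots, 0.2075 to 0.276, overlapped those of H+G-Exo, 0.171 to 0.211. Its 17-base probe gave 0.154 ± 0.0112 in H+G-Exo, 0.173 ± 0.0240 in H-Exo and 0.154 ± 0.0102 in N-Exo (n = 15 each), again with H-Exo highest. mmu-miR-3473d had 0% of its spots well above background on all 3 arrays for both probes. Its 16-base probe averaged -1.37 intensity units in H+G-Exo, -0.934 in H-Exo and -0.0900 in N-Exo, so it has no level and no fold here.

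**Figure D1:**
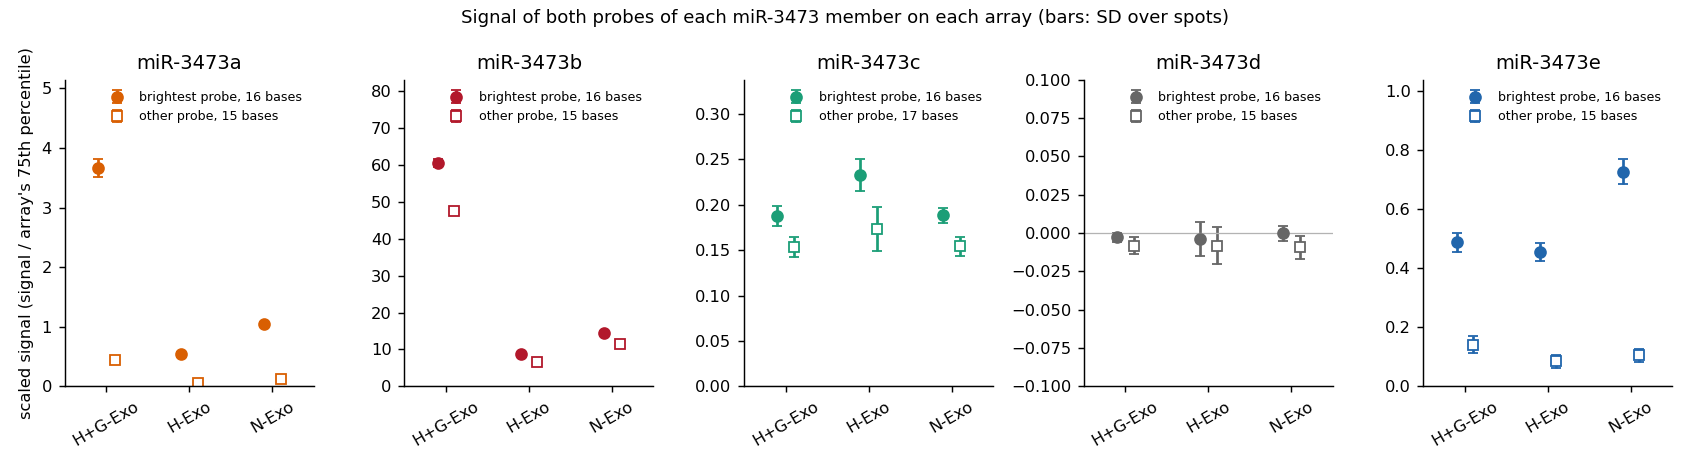
Scaled signal (signal over the array's 75th percentile, no unit) of both probes of each member in H+G-Exo, H-Exo and N-Exo. Filled circles are the brightest probe, open squares the other one, and bars the SD over spots. Each panel has its own linear axis, and that of miR-3473d is centred on 0. miR-3473a and miR-3473b stand high in H+G-Exo, miR-3473e is highest in N-Exo by its brightest probe, and miR-3473d lies at 0.

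H+G-Exo set against H-Exo asks what the exosome inhibitor did under hypoxia. The miRNAs that rose were miR-3473b, 6.95-fold higher (log2 2.80, SE over spots 0.0087), and miR-3473a, 6.77-fold higher (log2 2.76, SE 0.0334). The other 2 measured members stayed well under the threshold, miR-3473e at 1.07-fold (log2 0.10, SE 0.0356) and miR-3473c at log2 -0.31 (SE 0.0370), which was 0.69 with no scaling. So 2 of the 4 measured members rose and 0 fell, while among all 566 miRNAs measured on the 2 arrays 6.18% rose and 26.1% fell by that rule. Since the members were chosen for this contrast, nothing is read from that excess. The median log2 difference was 1.43 over the 4 members and -0.42 over all 566 miRNAs, and miR-3473b and miR-3473a ranked 1 and 2 from the top. Relative to that overall shift the differences were 3.22 for miR-3473b, 3.18 for miR-3473a, 0.52 for miR-3473e and 0.11 for miR-3473c.

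The second probes gave like values for miR-3473b and miR-3473c, and a higher one for miR-3473e. The 15-base probe of miR-3473b was 7.21-fold higher in H+G-Exo. That of miR-3473a was not detected in H-Exo and has no fold there. Its H+G-Exo value was 6.86-fold above 0.0653, the lowest scaled signal of a detected probe in H-Exo. The 15-base probe of miR-3473e was 1.67-fold higher (log2 0.74, SE 0.126), and the 17-base probe of miR-3473c differed by log2 -0.18 (SE 0.0584).

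The contrast between miR-3473b and miR-3473e can be read within each array, where scaling cancels. The log2 difference of miR-3473b exceeded that of miR-3473e by 2.70 (SE over spots 0.0367) in H+G-Exo against H-Exo. This gap lay between 2.11 and 2.99 over all 16 settings of processing tried. As a difference within the contrast that chose the members it is a description with no test. Without scaling, miR-3473e was 2.14-fold higher in H+G-Exo and passed the threshold, where 32.6% of all 567 measured miRNAs rose. It ranked 174 from the top there, as in the main setting. The H-Exo array was the dimmest, with a 75th percentile of 468.9 intensity units in H+G-Exo, 235.0 in H-Exo and 417.3 in N-Exo.

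The comparison of H-Exo with N-Exo asks what hypoxia alone did, and it shares the H-Exo array with the one before, so the values of both comparisons are not independent. No member passed the threshold: 0 of 4 measured rose and 0 fell, where 4.3% of 582 miRNAs rose and 10.7% fell. The values were 1.95-fold lower in H-Exo for miR-3473a (log2 -0.96, SE over spots 0.0319), 1.66-fold lower for miR-3473b (log2 -0.73, SE 0.0130) and 1.60-fold lower for miR-3473e (log2 -0.68, SE 0.0338). miR-3473c was 1.23-fold higher (log2 0.30, SE 0.0351), but its direction turned with no scaling (log2 -0.53), hybridization spike-ins (-0.55) and labelling spike-ins (-0.05). The overall median was 0.34, so relative to it the difference was -1.30 for miR-3473a, -1.07 for miR-3473b, -1.02 for miR-3473e and -0.04 for miR-3473c. Here miR-3473b and miR-3473e gave nearly the same difference, with a gap of -0.05 (SE 0.0362), which ranged from -0.48 to 0.18 over the 16 settings.

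These sizes lay close to the 2-fold limit, and the calls depended on scaling. miR-3473a fell with 8 of the 14 alternatives to the main setting that gave it a value. Of 15, miR-3473b fell with 4 and miR-3473e with 3, the settings with no scaling or with spike-in scaling among them. Under those settings 17% to 23.4% of all measured miRNAs fell, against 10.7% in the main setting. Under the others in which a member fell, the share was 11% to 14.3%. The differences of miR-3473a, miR-3473b and miR-3473e were below 0 under every alternative that gave a value.

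The comparison of H+G-Exo with N-Exo spans both changes of culture and shares an array with each of the others. miR-3473b rose 4.19-fold (log2 2.07, SE over spots 0.0131) and miR-3473a 3.48-fold (log2 1.80, SE 0.0201). miR-3473e was 1.49-fold lower (log2 -0.58, SE 0.0324), and miR-3473c had a log2 difference of -0.003 (SE 0.0295). The direction for miR-3473e turned with the probe, its 15-base probe being 1.34-fold higher in H+G-Exo (log2 0.42, SE 0.109), and the sign for miR-3473c varied between settings. Thus 2 of 4 measured members rose and 0 fell, where 18.3% of 606 miRNAs rose and 26.1% fell. miR-3473b ranked 16 and miR-3473a 26 from the top of the 606, further from the top than against H-Exo. The members were chosen for a rise on the same H+G-Exo array, so nothing is read from this excess or from these ranks. The median of the members was 0.90 and that of all 606 was -0.05. The log2 difference of miR-3473b exceeded that of miR-3473e by 2.65.

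**Figure D2:**
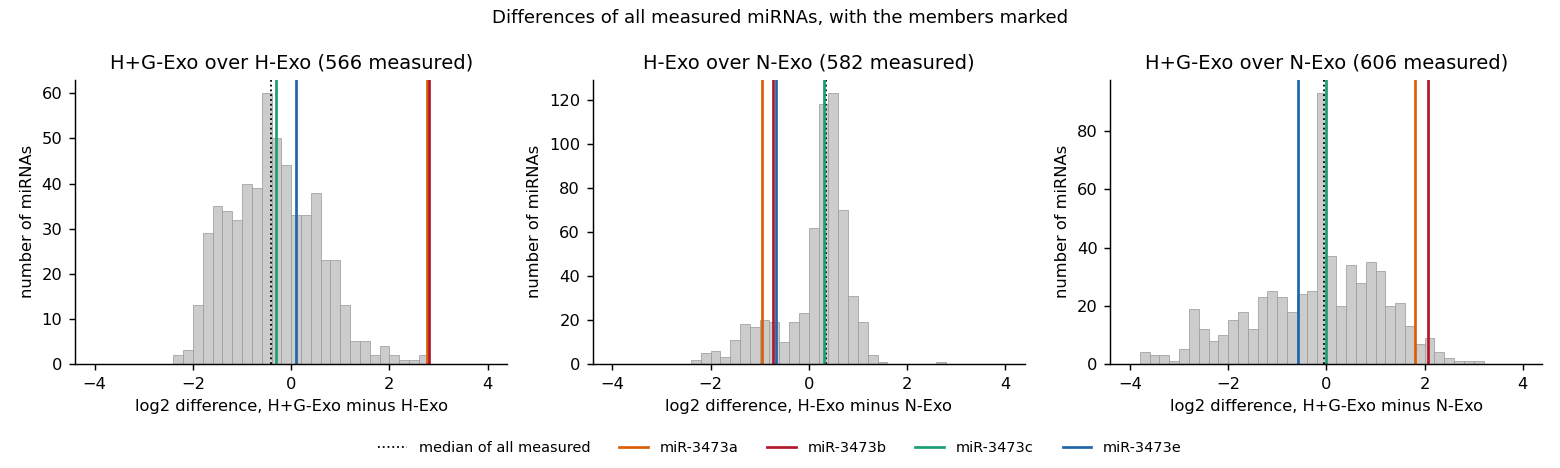
Histograms of the log2 difference of every miRNA measured on both arrays (x axis) against the number of miRNAs (y axis), for H+G-Exo over H-Exo (566 miRNAs), H-Exo over N-Exo (582) and H+G-Exo over N-Exo (606). Coloured lines mark the 4 measured members and the dotted line the median of all. With GW4869 against hypoxia alone, miR-3473a and miR-3473b lie at the right end while miR-3473c lies near the median of -0.42.

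The rise of miR-3473a and miR-3473b in H+G-Exo did not turn on the scaling. They passed the threshold against H-Exo under all 14 other settings that use the brightest or all probes, and miR-3473e joined them only with no scaling. Under these 14 settings 3% to 32.6% of all measured miRNAs rose, the most with no scaling. Over all settings, miR-3473b lay 3.08 to 3.64 above the overall median on the log2 scale and miR-3473a 2.64 to 3.21. miR-3473e lay 0.21 to 1.09 above it, and miR-3473c between -0.19 and 0.20. miR-3473b ranked 1 to 6 and miR-3473a 1 to 7 from the top.

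**Figure D3:**
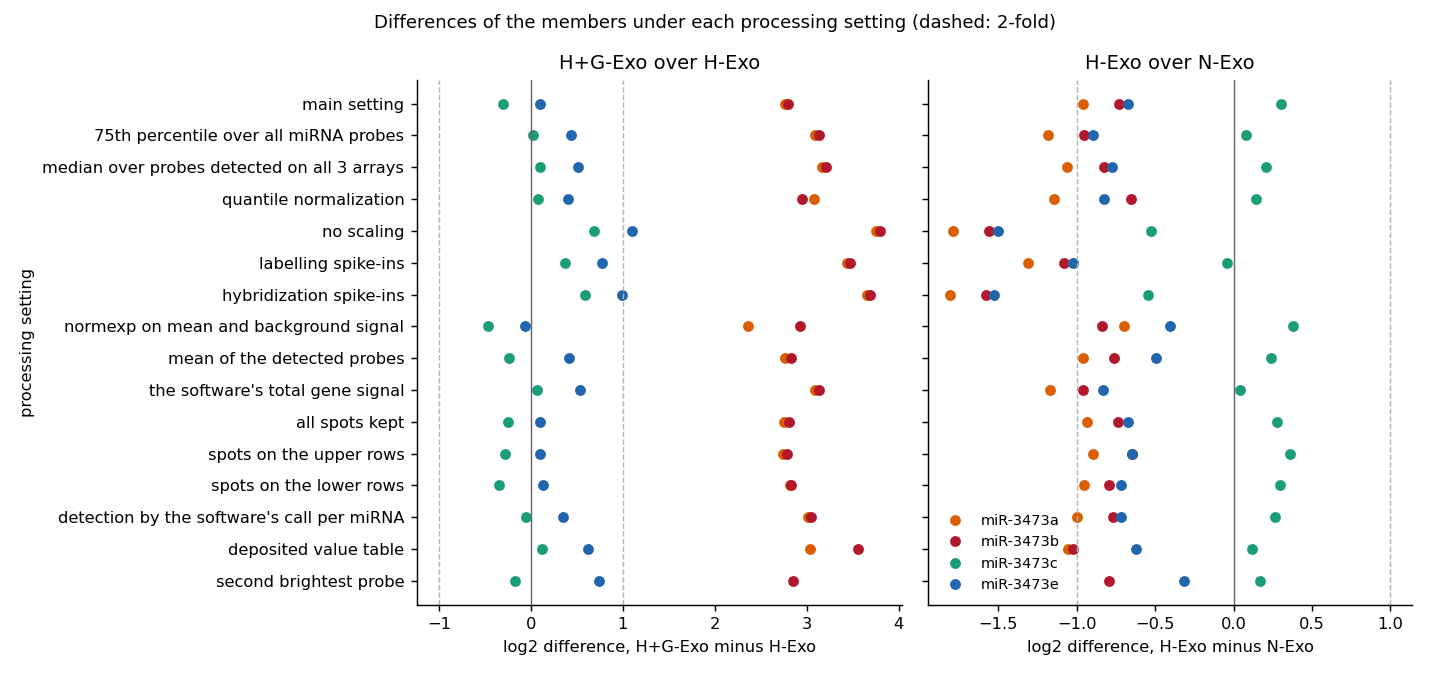
Log2 difference of each measured member (x axis, no unit) under each processing setting (y axis), for H+G-Exo over H-Exo on the left and H-Exo over N-Exo on the right. Points are single values with no error bar, and dashed lines mark 2-fold. miR-3473a and miR-3473b stay beyond 2-fold on the left, miR-3473e crosses that line with no scaling, and on the right miR-3473a, miR-3473b and miR-3473e lie on both sides of it. The point of miR-3473a for the second brightest probe is absent because that probe was not detected in H-Exo.

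Other miRNAs that carry the name or letters of the family were read in the same way. miR-3473f and miR-3473g bear the family name but are not among the 5. The 17-base probe of miR-3473f gave 0.277 in H+G-Exo, 0.353 in H-Exo and 0.491 in N-Exo, a log2 difference of -0.35 against H-Exo and -0.83 against N-Exo, both short of 2-fold. miR-3473f shares 11 bases with miR-3473b, and the 20-base reverse complement of miR-3473b stands in its hairpin too. miR-3473g, which shares at most 6 bases with a member, gave 6.49 in H+G-Exo, 3.97 in H-Exo and 3.05 in N-Exo. It was 1.63-fold above H-Exo and 2.13-fold above N-Exo, and passed the threshold only against N-Exo.

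A further set of 8 miRNAs, miR-3473f included, shared a seed or a run of 10 or more bases with a member. In H+G-Exo against H-Exo only 3 of the 8 could be measured, so little can be said of shared letters as such. miR-674-5p, with the seed of miR-3473d, fell 3.09-fold (0.309 in H+G-Exo, 0.957 in H-Exo and 0.541 in N-Exo). miR-6997-5p, which shares a run with miR-3473b and miR-3473e, was 1.56-fold higher, short of the threshold, with 0.221 in H+G-Exo, 0.142 in H-Exo and 0.0793 in N-Exo. miR-1947-3p, also with the seed of miR-3473d, was detected in H+G-Exo (0.0425) and N-Exo (0.0540) but not in H-Exo (0.0699). Its value was highest in H-Exo, the dimmest array, so no fall there is read from the detection. miR-882, with the seed of miR-3473a, miR-7649-3p, with that of miR-3473c, and miR-3099-5p and miR-5104 were not detected on any array.

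How often the letters of a probe recur in the genome was looked at in a sample of it, the RefSeq promoter windows of GRCm38.p6. There were 32851 windows of 300 bases, 250 before and 50 after each gene's start, searched on both strands for the whole probe. Windows of neighbouring genes can overlap. The 16-base letters of miR-3473b stood in 51 windows (0.155%), those of miR-3473a in 11 (0.0335%) and those of miR-3473c, miR-3473d and miR-3473e in 0. The full mature sequence of miR-3473b stood in 32 windows, that of miR-3473a in 9, and those of the other members in 0. Nothing is read from setting these counts against the rise in H+G-Exo, since the members were chosen by that rise. A match is a match of letters and shows no transcript.

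The same search was made for the brightest probe of 320 miRNAs measured in H+G-Exo and H-Exo with probes of at least 15 bases. Of these, 294 had 0 windows, 16 had 1 to 4 and 10 had 5 or more. Of all 320, 14 rose and 113 fell. Of the 10, 3 rose and 0 fell, but 2 of these 3, miR-3473a and miR-3473b, were chosen for rising in this contrast. Of the other 8, only miR-8113 rose. miR-8113 stood in 9 windows and gave 1.34 in H+G-Exo, 0.543 in H-Exo and 0.327 in N-Exo. miR-466i-5p, in 148 windows, gave 2.19 in H+G-Exo and 2.37 in H-Exo, a log2 difference of -0.12. miR-3470a, in 39 windows, gave 0.395 in H+G-Exo and 0.276 in H-Exo, a log2 difference of 0.52. These 3 were named after their values were seen, and whether recurrence goes with the rise was not tested.

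**Figure D4:**
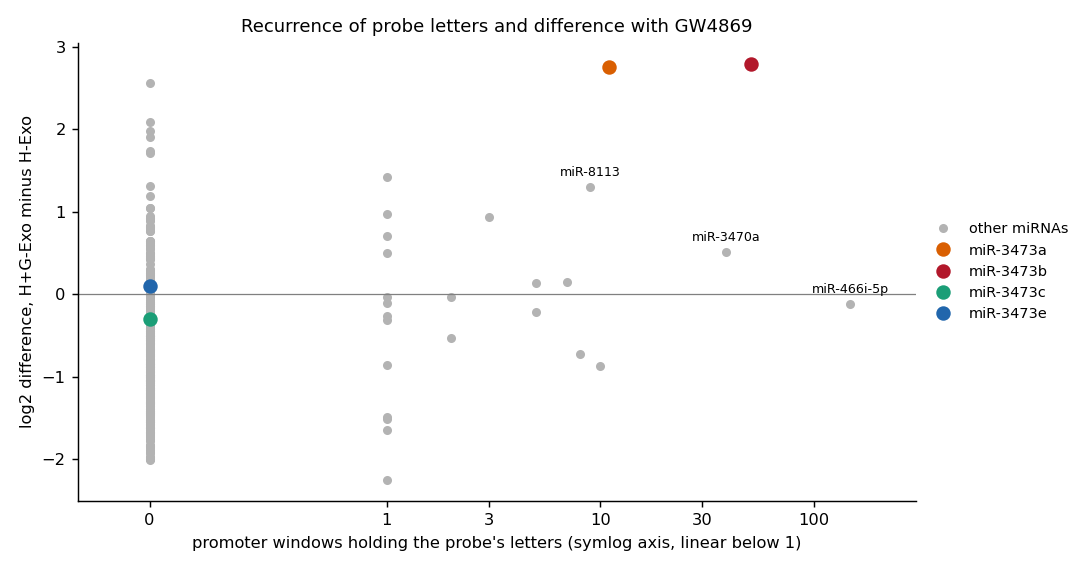
Log2 difference of H+G-Exo minus H-Exo (y axis) against the number of promoter windows that hold the letters of a miRNA's brightest probe (x axis, linear below 1 and logarithmic above), for 320 miRNAs. miR-3473b (51 windows) and miR-3473a (11 windows) stand at the top right, miR-3473c and miR-3473e at 0 windows. miR-466i-5p, with 148 windows, lies near 0.

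The names miR-297, miR-466, miR-467 and miR-669 are those of a large rodent cluster in the Sfmbt2 intron, which also carries repeated letters. The miRNAs with these names, miR-466i-5p among them, offer another group to set beside miR-3473. They were grouped by name alone, and whether each lies in that intron was not determined here. Of the 61 miRNAs with these names, 16 were measured in H+G-Exo and H-Exo. Of these 16, 0 rose and 5 fell, near the 6.18% of all miRNAs that rose and the 26.1% that fell. Their median log2 difference was -0.84, against -0.42 for all miRNAs. The greatest fall was that of miR-669d-3p, with 0.0676 in H+G-Exo and 0.242 in H-Exo. Its value in H+G-Exo lies just above the floor of 0.0653 used before log2. In H-Exo against N-Exo 1 of 20 rose, miR-466i-5p with 2.37 in H-Exo and 0.968 in N-Exo, and 3 fell, the most miR-467a-3p, where 4.3% of all miRNAs rose and 10.7% fell.

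Likeness of pattern was measured as the distance between miRNAs over the pair of log2 differences, H+G-Exo minus H-Exo and H-Exo minus N-Exo, for 562 miRNAs detected on all 3 arrays. By this measure miR-3473a was the nearest of all to miR-3473b, at 0.233. The members were chosen by the first of these differences, so this nearness is a description only. The brightest probes of the pair also share a run of 14 bases, and cross-hybridization was not tested. The nearest outside the family, named after its values were seen, was miR-494-3p at 0.878, with 24.9 in H+G-Exo, 5.12 in H-Exo and 5.19 in N-Exo. The mean of the 4 measured members lay at 1.34 and -0.52, a point between the pair that rose and the pair that did not. The 8 miRNAs nearest to that mean were miR-6407, miR-6354, miR-1931, miR-5121, miR-7042-5p, miR-709, miR-7226-5p and miR-690, at distances of 0.259 to 0.782. miR-6407 gave 0.309 in H+G-Exo, 0.137 in H-Exo and 0.171 in N-Exo, and miR-709 gave 21.8 in H+G-Exo, 10.6 in H-Exo and 9.48 in N-Exo. With 3 arrays this likeness rests on 2 numbers per miRNA.

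Each array had 58594 spots, 56430 of them for miRNAs, on 1 shared slide and scan. The brightest probes detected 675 miRNAs in H+G-Exo, 586 in H-Exo and 685 in N-Exo. Of 7 mesenchymal miRNAs, 7 were detected in H+G-Exo, 6 in H-Exo and 7 in N-Exo, with summed scaled signals of 49.0 in H+G-Exo, 123.8 in H-Exo and 283.7 in N-Exo. Of 6 blood-cell miRNAs 2 were detected on each array, miR-451a and miR-223-3p, with list sums of 0.117 in H+G-Exo, 0.314 in H-Exo and 0.248 in N-Exo. Markers of endothelium, epithelium and liver were at background on each array. The mesenchymal sum was thus lower in H+G-Exo than H-Exo, where miR-3473a and miR-3473b were higher, and its part in the result was not tested. miR-210-3p, the classic hypoxia miRNA, gave 6.17 in H+G-Exo, 13.2 in H-Exo and 7.51 in N-Exo. These are values after scaling by a 75th percentile of 468.9 intensity units in H+G-Exo, 235.0 in H-Exo and 417.3 in N-Exo. How miR-210-3p and the marker sums depend on that scaling was not tested, so no response to hypoxia is read from them. More copies per vesicle and a changed mix of vesicles or RNA in the pellet cannot be told apart on these arrays.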

How the data were processed

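One-colour Agilent mouse miRNA arrays were read for H+G-Exo, H-Exo and N-Exo, 1 array each, grouped by the labels' treatment field. Scans were quantified, per the file headers, by the authors with Agilent Feature Extraction 10.7.1.1, and the values deposited per spot are intensity values, background-subtracted and not scaled between arrays. The series' deposited value table was read as log2 values, with its normalization not given in the sources used here. The labels' protocols name a cRNA amplification kit and a cDNA kit, neither usual for miRNA arrays, so the labelling is uncertain.

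Spots marked as outliers were left out (3 of 150 member spots in H+G-Exo, 2 in H-Exo and 7 in N-Exo), spots of a probe were averaged, and each mean was scaled to the 75th percentile of its array, taken among probes that all 3 arrays detected. A miRNA took its brightest probe by mean scaled signal over the 3 arrays. Scaled signals had a floor of 0.0653, set by the least sensitive array, before log2 was taken. The number of arrays limits the precision, and no p-value was computed. The call rule was tested on simulated data. Alternatives changed the scaling, background correction (normexp with offset 50), probe, spots, detection or source, and 1 was added after the data were seen. For the deposited value table and the scanner software's total signal per miRNA no SE over spots was used, so rises and falls there rest on the fold alone.

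The members, lists and naming rule were chosen with earlier results of these data known. The rule named all members with every probe, other miR-3473 names and miRNAs sharing a seed or a run of 10 bases. It also named the 8 most alike and the largest changes among the miRNAs with names of the Sfmbt2 cluster. Sequences came from RefSeq tables, where 1608 of the 1881 miRNAs matched. Tools were Python 3.11.15, numpy 2.4.6, pandas 2.3.3, R 4.3.3 and limma 3.58.1.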

Additional observations from a re-analysis of the deposited data

How the results depend on the processing

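The counts of members that rose were 2, 0 and 2 (H+G-Exo over H-Exo, H-Exo over N-Exo and H+G-Exo over N-Exo) under 13 of the 14 other settings that use the brightest or all probes, and 3, 0 and 2 with no scaling, where miR-3473e also rose against H-Exo. With the second brightest probe, an alternative chosen after seeing the data, 1 member, miR-3473b, rose against H-Exo, where 5.82% of all miRNAs rose. The 15-base probe of miR-3473a was not detected in H-Exo and has no fold there. No member fell in H-Exo against N-Exo in the main setting, while 3 fell with no scaling or spike-in scaling, 2 with the deposited value table and 1, miR-3473a, with 4 others. The split of all calls moved more: 35 higher and 148 lower against 185 and 7 with no scaling (H+G-Exo over H-Exo), 25 and 62 against 1 and 134 (H-Exo over N-Exo), and 111 and 158 against 169 and 119 with labelling spike-ins (H+G-Exo over N-Exo). The difference of miR-3473e against H-Exo was above 0 in 14 of 15 alternatives and that of miR-3473c in 8 of 15. No paired analysis was possible because each group had 1 array, and leaving out a replicate was not possible for the same reason. Signals near background, those of miR-3473c, miR-3473d and the 15-base probes of miR-3473a and miR-3473e, limit what can be read from them.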
